A study of Mus musculus with 2 samples.

Results

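T cells of the mouse liver were taken as barcodes that carried RNA of the T cell receptor complex or of 2 T cell regulators. They also had to carry no RNA of 3 natural killer receptor genes. A barcode was kept at 1000 or more unique molecular identifiers (UMIs, each standing for 1 captured RNA molecule) and 400 or more detected genes, provided that mitochondrial RNA made up no more than 30% of its UMIs. It was then chosen if Cd3e, Cd3d, Cd3g, Themis and Camk4 together gave at least 2 UMIs, if Ncr1, Klrb1c and Klre1 gave 0, and if markers of Kupffer cells, endothelium, stellate cells and B cells (Clec4f, Vsig4, Cd5l, Stab2, Ptprb, Dcn and Ebf1) gave at most 1. The rule found 565 T cells among 20158 kept barcodes of the WT library and 757 among 22214 of the N-LKO library, 1322 of 42372 in all. Since UMIs of these genes chose the cells, the levels of these genes are given below only as a description.

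Each group was represented by 1 library, so the differences below could not be checked against replicates and no test across animals was possible. The WT library came from livers of control mice. The N-LKO library came from liver plus tumor of mice in which Nus1, the gene for the NgBR subunit of the enzyme that makes dolichol, was floxed and removed by albumin-Cre, a transgene active in hepatocytes. All mice were males on a C57BL/6 background and had been fed a Western diet for 16 weeks, which the sample titles call a high-fat diet. Their ages and the number of mice behind each library are not given in the labels. Hepatocytes and nonparenchymal cells were mixed at equal parts for WT, and tumor cells were added to the mixture for N-LKO. Genotype, tumor tissue and library therefore differed together and cannot be told apart. The study examined T cells of these livers for genes of fatty acid oxidation, mitochondria, antioxidant defence and exhaustion.

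T cells recognize peptides on MHC molecules through a receptor whose alpha and beta chains carry the antigen specificity and whose CD3 and zeta chains pass the signal to the kinases Lck and Zap70. The coreceptor CD8 marks T cells that read MHC class I and can kill their targets, and CD4 marks those that read MHC class II and help other cells. The liver is known for a large population of CD8+ memory and tissue-resident T cells, which secrete chemokines such as Ccl5 and store granzymes in cytotoxic granules. Persistent stimulation is known to raise inhibitory receptors such as PD-1 together with the transcription factor Tox.

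Granule genes that were lower in N-LKO T cells are shown first by the DNA just before their start sites, because the levels below turn on them. Gzma encodes granzyme A (chromosome 13, 113093825 to 113100981, minus strand, GRCm38), Gzmb encodes granzyme B (chromosome 14, 56258838 to 56262260, minus strand), and Nkg7 encodes a granule membrane protein (chromosome 7, 43437073 to 43438249, plus strand). The sequences come from RefSeq on GRCm38.p6, read 5′ to 3′ along the strand of the gene, and cover up to 250 bases before the RefSeq start without any annotated exon. Capitals mark the letters TGTGGT or their reverse complement ACCACA, the core that RUNX factors are known to bind.
Gzma, chr13:113100982-113101231, minus strand: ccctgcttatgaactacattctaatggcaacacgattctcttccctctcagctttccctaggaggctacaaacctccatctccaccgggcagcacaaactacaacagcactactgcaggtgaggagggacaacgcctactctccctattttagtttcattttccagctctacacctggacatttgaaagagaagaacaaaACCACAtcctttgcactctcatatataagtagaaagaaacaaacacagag
Gzmb, chr14:56262335-56262584, minus strand: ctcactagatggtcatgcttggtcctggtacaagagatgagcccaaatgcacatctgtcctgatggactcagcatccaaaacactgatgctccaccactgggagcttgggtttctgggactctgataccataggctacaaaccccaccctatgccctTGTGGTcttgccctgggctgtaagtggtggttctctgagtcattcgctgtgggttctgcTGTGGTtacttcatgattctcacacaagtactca
Nkg7, chr7:43436888-43437072, plus strand: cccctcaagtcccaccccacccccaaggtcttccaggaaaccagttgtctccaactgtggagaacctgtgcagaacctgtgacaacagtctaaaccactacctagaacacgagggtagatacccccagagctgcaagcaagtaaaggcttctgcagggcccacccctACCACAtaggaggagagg

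So short a run of letters is common, and 4614 of 32851 RefSeq promoters (14.0%) hold this core on either strand within 250 bases before the start. All 6 of the lower cytotoxic genes that have an entry hold it (Gzma, Gzmb, Nkg7, Ccl3, Cst7 and Xcl1). Among the 8 cytotoxic genes that differed by less than 2-fold, 6 have an entry and 1 of these, Klrk1, holds it. Of the 2 higher genes, Cx3cr1 holds it and Zeb2 does not. The T-box letters GGTGTGA or TCACACC stood in 1095 promoters (3.33%), and among these genes in Xcl1, Gzmk and Nkg7, in the last outside the stretch printed above. A match of letters is a description of the sequence and not a binding site. Ccl5, Ccl4, Klrd1 and Ctsw have no entry.

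The T cells held 780067 UMIs in WT and 1264250 in N-LKO, with a median of 1217 UMIs and 746 genes per WT cell against 1427 UMIs and 840 genes per N-LKO cell. Levels are given as CPM, the summed UMIs of a gene scaled to a common total for the T cells of each library, with exact 95% intervals that cover counting error only, since 1 library holds no error between animals. Differences are log2 ratios of N-LKO over WT. The median mitochondrial share was 12.0% in WT T cells and 16.8% in N-LKO T cells, and ribosomal protein genes took 10.1% and 7.1% of their UMIs. RNA set free from other cells reaches every droplet. From 16 hepatocyte genes, which took 5.17% of UMIs in WT T cells and 2.75% in N-LKO T cells, its share was estimated at 49.2% in WT and 51.2% in N-LKO, and the level that it alone would give is named below as the free RNA level. The estimate takes barcodes under 500 UMIs (median 452 in WT and 449 in N-LKO) as free RNA. Whether those barcodes held no cell was not tested.

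The label was checked with 21 T cell genes that the rule had not used, 4 receptor genes and 17 signalling genes. At least 1 of their UMIs was present in 94.2% of WT members (interval 91.9 to 95.9) and in 92.2% of N-LKO members (90.1 to 94.0). The same share was 18.4% and 21.8% in Kupffer barcodes and 16.8% and 24.5% in endothelial barcodes of WT and N-LKO. The defining natural killer genes Ncr1, Klrb1c and Klre1 were at 0 by the rule, and Klra4, which the rule did not use, was also at 0 in both libraries. Of the 10 listed natural killer genes, however, 6 in WT and 5 in N-LKO were at 2 or more times the free RNA level. Most members thus carried RNA of the 21 genes beyond the genes that had chosen them. Most natural killer barcodes did as well, so this share does not separate T cells from natural killer cells.

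RNA of other cell types was not equal between the libraries. At least 3 UMIs of 12 myeloid genes were present in 30 WT T cells (5.31%) and in 208 N-LKO T cells (27.5%). Endothelial barcodes showed a like difference, 8.86% and 26.3%, and so did B barcodes, 12.8% and 31.0%. Lyz2, a lysozyme of macrophages and neutrophils, was at 190 CPM in WT T cells and at 678 CPM in N-LKO T cells, above free RNA levels of 33.9 and 102 CPM. Its log2 ratio was 1.83, and 0.34 without the T cells that held 3 or more myeloid UMIs. The summed Kupffer and macrophage list was at 482 and 1405 CPM (free RNA levels 315 and 586), the neutrophil list at 112 and 498 CPM and the dendritic list at 1002 and 2194 CPM. Natural killer genes, among them the shared adaptors Fcer1g and Tyrobp, summed to 314 and 740 CPM, B and plasma genes to 3300 and 2254 CPM, and endothelial genes to 227 and 329 CPM. The stellate list summed to 93.6 and 109 CPM, the cholangiocyte list to 105 and 350 CPM, and the erythroid list to 253 and 58.5 CPM. The part of these cells in the results below was not tested beyond the values without these myeloid-rich barcodes, which are given for Lyz2, Ccl5, Ccl3, Zeb2 and Tox, the followed genes that moved beyond counting error. A doublet score over 0.25 was given to 5.31% of WT and 5.42% of N-LKO T cells, and 12 and 17 of them had a barcode sequence that the other library also listed.

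The limits of the rule mattered for the level of single genes. T cells with exactly 2 marker UMIs, just inside, were 254 in WT and 439 in N-LKO, and their Ccl5 level was 4708 and 1516 CPM. Barcodes with 1 marker UMI, just outside, were 713 and 967, with Ccl5 at 1653 and 870 CPM and an independent T cell UMI in 56.4% and 64.6% of them. Barcodes that failed by 1 natural killer UMI numbered 35 and 43, with Ccl5 at 3556 and 1782 CPM, and those that failed by 2 UMIs of other markers numbered 60 and 139, with Ccl5 at 3933 and 1222 CPM. The Ccl5 level was thus lower in N-LKO on both sides of each of these limits. The 2 kinds of marker did not choose the members alike, since 93 WT members (16.5%) and 258 N-LKO members (34.1%) were chosen by Themis and Camk4 UMIs alone. Cd3e, a signalling chain of the receptor, was at 494 CPM in WT cells and 237 CPM in N-LKO cells, whereas Themis, a regulator of receptor signalling in developing T cells, was at 818 and 777 CPM.

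The antigen receptor itself came first. Trac, the constant part of the alpha chain, was at 104 CPM in WT (81 UMIs) and at 61.7 CPM in N-LKO (78 UMIs). Of the beta chain constant genes, Trbc1 was at 205 and 94.1 CPM and Trbc2 at 363 and 181 CPM. Cd247, the zeta chain, was at 159 and 108 CPM. All 4 were thus lower in N-LKO beyond counting error, with log2 ratios of −0.75 (−1.22 to −0.28), −1.12 (−1.48 to −0.77), −1.0 (−1.26 to −0.75) and −0.55 (−0.91 to −0.19), and 2 of the 4 passed a 2-fold difference. The size depended on how members were chosen. With at least 3 T marker UMIs, Trac, Trbc1 and Trbc2 were at −0.20, −1.05 and −0.87. With Cd3e, Cd3d and Cd3g as the only markers they were at −0.48, −0.64 and −1.02. Over all 6815 genes with a mean of at least 20 CPM, 11.2% were at least 2-fold higher and 7.59% at least 2-fold lower in N-LKO T cells. Over the 4910 of them at or above 2 times the free RNA level in both libraries, these shares were 10.3% and 2.2%. The 4 receptor genes are short, with a median genomic span of 2.675 kb. Over the shortest of 5 classes of tested genes by span (up to 10.9 kb), the median log2 ratio was −0.52. In that class 21.2% of genes were 2-fold lower, and 8.87% of those above 2 times the free RNA level. The part of gene span in the receptor ratios was not tested. The balance of the 2 beta constant genes was alike, with Trbc1 giving 36.1% of beta constant UMIs in WT (31.6 to 40.8) and 34.2% in N-LKO (29.2 to 39.4). Variable segments were too sparse to describe the repertoire, with 29 and 13 UMIs over 35 beta segments and 18 and 13 UMIs over 128 alpha segments.

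Of the signalling genes behind the receptor, few passed 2-fold. Of 24 genes, all tested, 0 were 2-fold higher and 1 was 2-fold lower, and the median log2 ratio was −0.32 beside 0.07 over all genes. That median was −0.93 with a mitochondrial limit of 10% and −0.11 with at least 3 T marker UMIs. The lower gene was Zap70, the kinase that binds the zeta chain, at 74.4 CPM in WT cells and 35.6 CPM in N-LKO cells, with free RNA levels of 26.8 and 6.81 CPM. Lck, the kinase that starts the signal, was at 104 and 89.4 CPM and Lat, the adaptor that gathers the signalling complex, at 57.7 and 47.5 CPM, both within counting error. Skap1, an adaptor for integrin adhesion, was at 776 and 692 CPM (log2 −0.16, −0.31 to −0.01), and its ratio turned to 0.07 with at least 3 T marker UMIs and to 0.16 with Cd3e, Cd3d and Cd3g as the only markers. Ptprc, which encodes the leukocyte antigen CD45, was at 1187 and 1077 CPM.

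**Figure D1:**
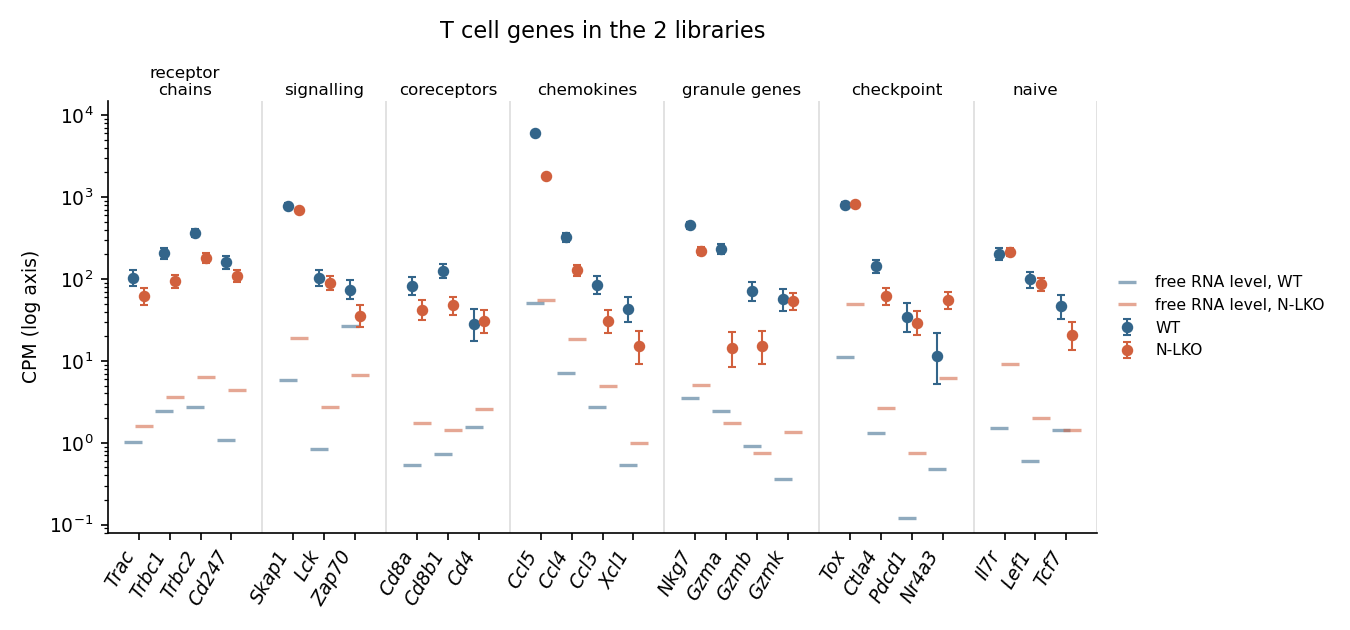
Levels of 25 genes in T cells of the WT (blue) and N-LKO (orange) library, in CPM on a log axis, grouped by role. Points are the level of 1 library, bars the exact 95% counting interval and short dashes the free RNA level, and Ccl5 lies at 5996 and 1807 CPM while Tox lies at 808 and 820 CPM.

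The CD8 coreceptor was lower in N-LKO T cells, while CD4 did not differ beyond counting error. Cd8a (chromosome 6, 71373427 to 71379173, plus strand) was at 82.0 CPM in WT cells and 41.9 CPM in N-LKO cells, and Cd8b1 (chromosome 6, 71322788 to 71337494, plus strand) at 127 and 47.5 CPM, with log2 ratios of −0.97 (−1.52 to −0.42) and −1.41 (−1.91 to −0.94). Cd4 was at 28.2 and 30.8 CPM (0.12, −0.66 to 0.95). A UMI of either coreceptor was found in few cells, and 25.5% of WT and 17.8% of N-LKO T cells could be typed by 1 coreceptor alone. In WT, 126 T cells carried CD8 RNA alone, 18 carried Cd4 alone, 1 carried both and 420 neither. In N-LKO the numbers were 98, 37, 0 and 622. CD8 cells made up 87.5% of the typed cells in WT (81.0 to 92.4) and 72.6% in N-LKO (64.3 to 79.9), a difference of −14.9 percentage points (−24.1 to −5.56). Cd8a spans 5.75 kb and Cd8b1 14.7 kb, against 23.5 kb for Cd4. Whether fewer CD8 cells or fewer CD8 UMIs per cell gave this difference was not tested. Among the 192 WT and 99 N-LKO T cells with at most 10% of mitochondrial UMIs, the difference was −1.77 points (−25.5 to 15.0). That interval holds both 0 and −14.9, so this setting cannot tell the 2 apart.

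Chemokines and several granule genes of cytotoxic cells were lower in N-LKO T cells. Of 23 genes on the cytotoxic list 18 were tested, and 8 were lower, 2 higher and 8 between, with a median log2 ratio of −0.90. The lower genes made up 44.4%, beside 7.59% of all genes. The higher ones made up 11.1%, which is near the 11.2% of all genes. All 18 were at or above 2 times the free RNA level in both libraries, where 2.2% of genes were lower and 10.3% higher. Ccl5 (chromosome 11, 83525778 to 83530518, minus strand), a chemokine that draws further T cells, was at 5996 CPM in WT (4677 UMIs) and at 1807 CPM in N-LKO (2284 UMIs). Its level in WT was 3.32 times that in N-LKO, with a log2 ratio of −1.73 (−1.80 to −1.66), and its free RNA levels were 50.9 and 55.3 CPM. Ccl4 and Ccl3, chemokines of the same family, were at 326 and 128 CPM and at 84.6 and 30.8 CPM. Xcl1, which draws cross-presenting dendritic cells, was at 43.6 CPM (34 UMIs) and 15.0 CPM (19 UMIs). All 4 chemokines were thus lower in the N-LKO library.

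Granule genes did not move as a block. Gzma was at 235 CPM in WT (183 UMIs in 70 cells) and at 14.2 CPM in N-LKO (18 UMIs in 10 cells), a log2 ratio of −4.01 (−4.83 to −3.34). Gzmb was at 70.5 CPM (55 UMIs) and 15.0 CPM (19 UMIs), a log2 ratio of −2.21 (−3.07 to −1.45). The cell with the most Gzma UMIs held 25 in WT and 4 in N-LKO, and without it the ratio was −4.15. Nkg7 was at 450 and 220 CPM (−1.03, −1.27 to −0.80), and Cst7, the granule protease inhibitor cystatin F, gave 39 and 28 UMIs (−1.17, −1.93 to −0.44). Gzmk, a granzyme of memory CD8+ T cells, was at 56.4 and 53.8 CPM and differed by less than counting error (−0.07, −0.64 to 0.51). The killer lectin receptors Klrd1 and Klrk1 lay at 101 and 75.9 CPM and at 69.2 and 64.1 CPM, again within counting error. Fasl, a ligand that triggers cell death, was at 42.3 and 21.4 CPM (−0.98, −1.78 to −0.21), just short of 2-fold.

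The transcription factors of the cytotoxic program showed no common direction. Tbx21 was at 42.3 and 49.0 CPM and Eomes at 52.6 and 34.8 CPM, both within counting error. Id2 was at 376 and 214 CPM (−0.81, −1.06 to −0.57), with free RNA levels of 125 and 49.1 CPM. Zeb2, which acts with T-bet in terminal effector cells, was higher at 172 and 511 CPM, and the receptor Cx3cr1 was higher at 15.4 and 52.2 CPM. Both are also genes of myeloid cells, and Kupffer barcodes held Zeb2 at 1453 and 1639 CPM. Without the T cells that held 3 or more myeloid UMIs, the log2 ratio of Zeb2 was 0.93, that of Ccl5 −1.64 and that of Ccl3 −2.62. Gzmm, Ifng, Klrg1, Prf1 and Tnf had too few UMIs to be tested, and Klrg1 gave 6 UMIs in WT and 0 in N-LKO.

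Per cell, the Ccl5 difference lay in the cells with many UMIs more than in the number of cells with any. After each cell had been thinned to 1000 UMIs, 71.3% of WT T cells (67.4 to 75) and 60.1% of N-LKO T cells (56.5 to 63.6) held at least 1 Ccl5 UMI, a difference of −11.2 points (−16.2 to −6.06). Kupffer barcodes held one in 5.10% and 5.6%, and endothelial barcodes in 5.12% and 6.55%. The median was 3 UMIs per WT cell and 1 per N-LKO cell, the 90th percentile 18 and 6, and the highest count 42 and 22. Cells with 10 or more Ccl5 UMIs numbered 148 in WT (26.2%) and 22 in N-LKO (2.91%).

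**Figure D2:**
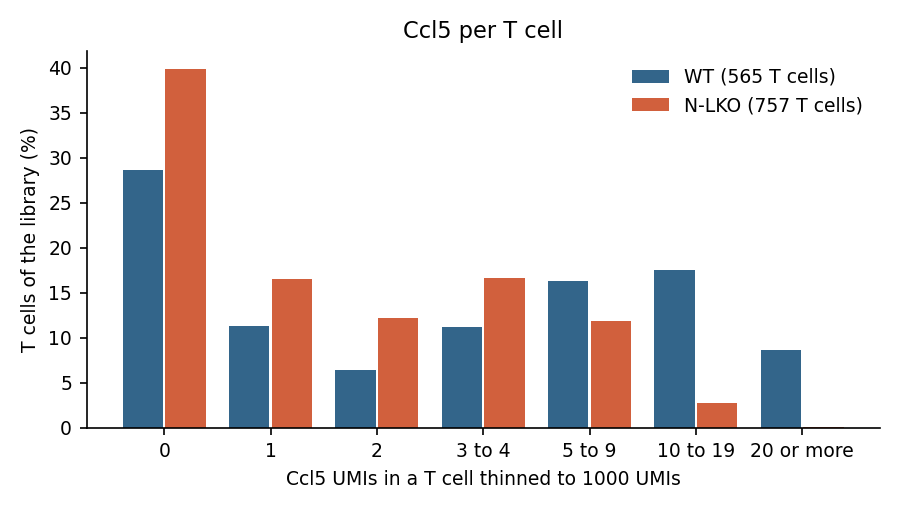
Share of T cells (percent of each library) by the number of Ccl5 UMIs left after thinning to 1000 UMIs per cell, WT in blue (565 cells) and N-LKO in orange (757 cells). Cells with no UMI made up 28.7% and 39.9%, and the classes of 10 or more UMIs held 26.2% of WT and 2.91% of N-LKO cells.

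The lower levels were present in the CD8-typed cells and in the untyped ones. In CD8-typed cells Ccl5 was at 7912 CPM (WT) and 3317 CPM (N-LKO), Nkg7 at 660 and 400 CPM and Gzma at 330 (59 UMIs) and 20.3 CPM (3 UMIs). In cells with neither coreceptor Ccl5 was at 5600 and 1642 CPM and Gzma at 211 and 14.2 CPM. In the 18 and 37 CD4-typed cells Ccl5 was at 1218 CPM (833 to 1719) and 1032 CPM (797 to 1316), with intervals that overlap. Ccl5 and Gzma were thus lower within the CD8-typed cells alone. The 53 WT and 104 N-LKO natural killer barcodes, set apart by their own markers, also held less in N-LKO, with Ccl5 at 3632 and 1642 CPM, Gzma at 582 and 174 CPM and Nkg7 at 383 and 210 CPM.

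**Figure D3:**
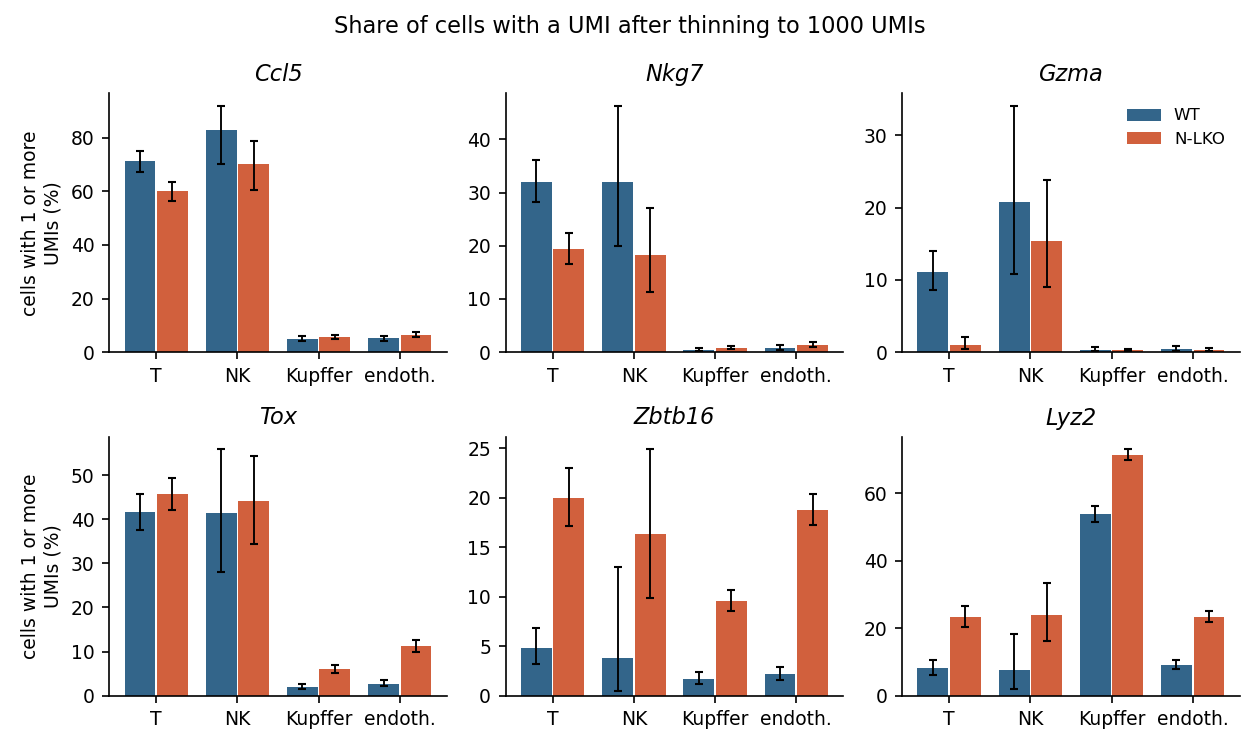
Share of cells (percent, linear axis from 0) with at least 1 UMI of Ccl5, Nkg7, Gzma, Tox, Zbtb16 and Lyz2 after thinning to 1000 UMIs, in T, natural killer (NK), Kupffer and endothelial barcodes of WT (blue) and N-LKO (orange), with exact 95% intervals. In T cells Nkg7 was at 32.0% and 19.4% of cells and Gzma at 11.2% and 1.06%, whereas Zbtb16 was at 4.78% and 19.9% in T cells and at 2.15% and 18.7% in endothelial barcodes.

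Most of the lower cytotoxic genes are short, and short genes were lower in N-LKO T cells in general. Over the shortest of 5 equal classes of tested genes by genomic span (up to 10.9 kb) the median log2 ratio was −0.52, and over the longest it was 0.59. Of the 18 cytotoxic genes 13 lay in the shortest class, among them all 8 lower ones, with a median of −1.17. In that class 8.87% of genes above 2 times the free RNA level were 2-fold lower. The 2 higher genes, Zeb2 and Cx3cr1, lay in the longest class, where 23.8% were 2-fold higher. Nkg7 spans 1.18 kb, Ccl5 4.74 kb and Gzma 7.16 kb, against 305 kb for Tox and 215 kb for Themis. The Gzma ratio lay below every other gene above the free RNA level, while the Nkg7 ratio lay nearer to the median of its class. The part of gene span in these differences was not tested.

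**Figure D4:**
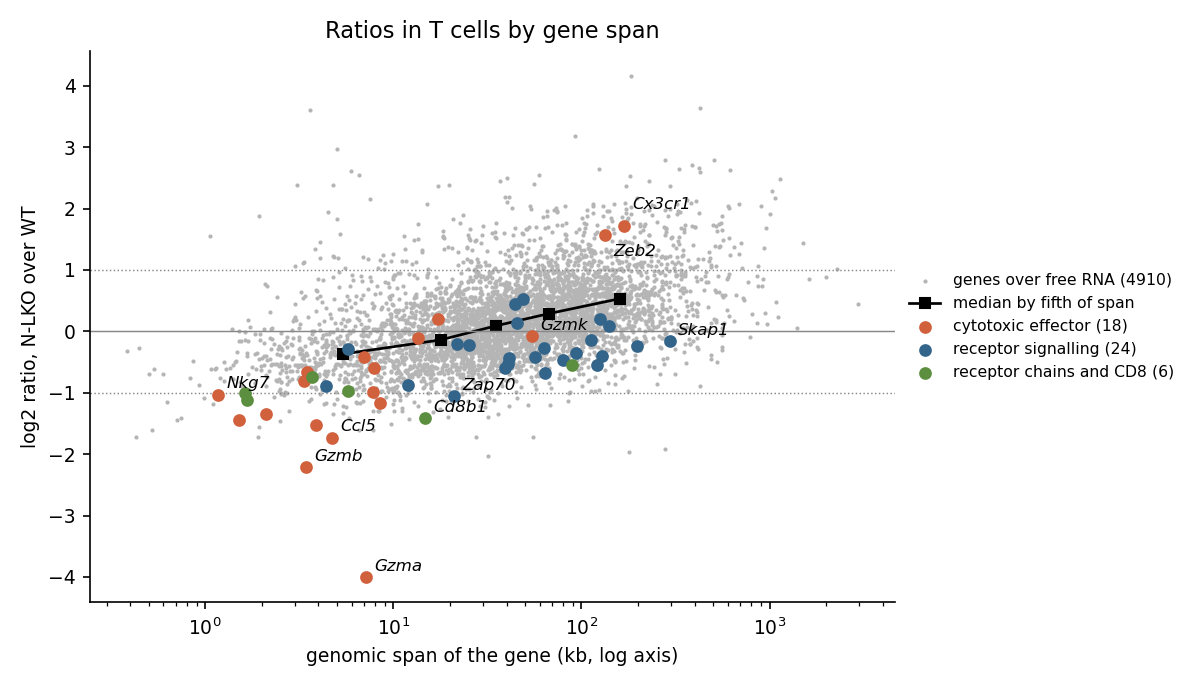
Log2 ratio of N-LKO over WT in T cells against the genomic span of the gene (kb, log axis) for 4910 genes above the free RNA level (grey), with the median of each of 5 span classes (black squares) and the cytotoxic (orange), signalling (blue) and receptor and CD8 genes (green). The class medians run from −0.37 to 0.53, Gzma lies at −4.01 and Cx3cr1 at 1.71, and dotted lines mark 2-fold.

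Of 17 genes of inhibitory receptors and exhaustion 12 were tested. On the log2 scale 9 of these lay below 0 and 3 above it, beside 3130 below 0 of all 6815 genes. Their median was −0.36 beside 0.07 over all genes, with an interval over the listed genes of −1.12 to 0.02 that includes 0. At least 2-fold lower were 3 (25% of those tested, beside 7.59% of all genes), and 1 was higher. Tox (chromosome 4, 6686353 to 6991557, minus strand), the factor that sustains exhausted T cells, was at 808 CPM in WT (630 UMIs) and 820 CPM in N-LKO (1037 UMIs), with a log2 ratio of 0.02 (−0.12 to 0.17) that was 0.20 without the myeloid-rich barcodes. In other classes Tox was higher in N-LKO, at 31.7 and 160 CPM in endothelial, 20.5 and 78.1 CPM in Kupffer and 48.3 and 169 CPM in B barcodes, while natural killer barcodes held 780 and 749 CPM. Pdcd1, which encodes PD-1, was at 34.6 CPM (27 UMIs) and 29.3 CPM (37 UMIs), with a log2 ratio of −0.25 and an interval of −1.0 to 0.53. Ctla4, the inhibitory receptor that competes with Cd28, was lower at 144 and 61.7 CPM (−1.22, −1.65 to −0.79), in 9.91% and 5.55% of thinned cells. Cd101 was lower at 38.5 CPM (30 UMIs) and 15.0 CPM (19 UMIs), and Nfil3 at 29.5 and 13.4 CPM, near its free RNA levels of 17.8 and 8.32 CPM. The higher gene was Nr4a3, an early response factor downstream of the receptor, at 11.5 CPM (9 UMIs) and 55.4 CPM (70 UMIs). Havcr2, which encodes Tim-3, was at 42.3 and 29.3 CPM, within counting error. Lag3, Tigit, Cd160, Cd200 and Tnfrsf9 had too few UMIs, and Lag3 gave 11 UMIs in WT and 5 in N-LKO.

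Within CD8-typed cells Tox was at 1046 CPM in WT (902 to 1208) and 1024 CPM in N-LKO (867 to 1201), and Pdcd1 at 56.0 and 67.8 CPM on 10 UMIs each. Ctla4 was at 123 CPM (77.1 to 186) and 54.3 CPM (23.4 to 107), with overlapping intervals. At 10 UMIs, a change of Pdcd1 was not detectable at this depth.

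Genes of naive and recirculating T cells lay on both sides of 0. Of 15 genes 12 were tested, 6 above and 6 below, with 0 past 2-fold higher, 1 past 2-fold lower and a median log2 ratio of −0.07, which was 0.34 with Cd3e, Cd3d and Cd3g as the only markers. Il7r, the receptor of a survival cytokine, was at 203 and 214 CPM, Lef1 at 98.7 and 86.2 CPM and Satb1 at 179 and 157 CPM. The lower gene was Tcf7, the factor that keeps memory cells able to renew, at 46.1 CPM (36 UMIs) and 20.6 CPM (26 UMIs). Txk, a kinase of T cells, was at 141 and 76.7 CPM (−0.88, −1.29 to −0.47), and Foxp1, a factor of quiescence, at 422 and 537 CPM (0.35, 0.16 to 0.54). Ccr7, which guides cells into lymph nodes, gave 14 and 16 UMIs and was not tested.

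Tissue residency genes were measured for 11 of 13, with 1 higher, 0 lower and a median of −0.37. Cxcr6, the receptor that keeps T cells in the liver sinusoids, was at 110 and 85.4 CPM, Cd69 at 47.4 and 33.2 CPM and Rgs1 at 172 and 140 CPM, each within counting error. Runx3, the factor of CD8 and resident cells, was at 136 and 88.6 CPM (−0.62, −1.01 to −0.22), and Cd7 at 61.5 and 30.8 CPM (−0.99, −1.64 to −0.36). The higher gene was Rgs2, at 41.0 and 95.7 CPM, a gene that Kupffer barcodes held at 239 and 296 CPM. Cd44 was at 118 and 229 CPM (0.95, 0.62 to 1.31), and Kupffer barcodes held it at 550 and 531 CPM.

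Genes of regulatory, helper and innate-like T cells left few UMIs. The rule had left out every barcode with a UMI of Ncr1, Klrb1c or Klre1. Innate-like T cells that carry these genes were therefore not among the members, and their number cannot be read from these values. Foxp3, which defines regulatory T cells, gave 2 UMIs in WT and 9 in N-LKO, a log2 ratio of 1.23 with an interval of −0.80 to 4.72. Of the 11 regulatory genes 5 were tested, with Capg higher and Ctla4 lower, and Ikzf2 was at 285 and 240 CPM. Capg, a gene of macrophages as well, was at 14.1 and 41.9 CPM in T cells and at 56.3 and 118 CPM in Kupffer barcodes. Of 17 helper genes 7 were tested with 0 past 2-fold in either direction. Rora was at 194 and 277 CPM, Maf at 247 and 218 CPM and Cd40lg at 30.8 and 16.6 CPM, while Il17a, Il13 and Il5 gave 0 UMIs in both libraries, which 3 counts of the total would limit to 3.85 CPM (WT) and 2.37 CPM (N-LKO). Of the gamma delta and innate-like genes only Tcrg-C2 and Zbtb16 were tested. Tcrg-C2, a gamma chain constant gene, was at 23.1 and 23.7 CPM, and Trdc, the delta chain, gave 3 and 2 UMIs. Zbtb16, a factor of natural killer T and other innate-like cells, gave 39 UMIs in WT and 368 UMIs in N-LKO, where it was at 291 CPM (2.53, 2.06 to 3.06), but the difference was not particular to T cells. Zbtb16 was at 29.9 and 247 CPM in endothelial barcodes, 16.3 and 121 CPM in Kupffer barcodes and 18.1 and 184 CPM in B barcodes.

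Among receptors for chemokines and cytokines the medians lay near 0. Of 15 chemokine receptor and egress genes 10 were tested, with 3 higher (30%, beside 11.2% of all genes), 0 lower and a median of 0.11. Ccr2, which answers monocyte chemokines and is used by effector T cells too, was at 55.1 and 142 CPM, Cxcr4 at 14.1 and 33.2 CPM and Cx3cr1 as given above. The integrin chain Itga4 was at 558 and 391 CPM (−0.51, −0.70 to −0.32). Of 19 cytokine receptors 16 were tested, with 3 higher (Il1r1, Il6ra and Tgfbr1, 18.8%), 0 lower and a median of 0.05. Il1r1 was at 23.1 and 214 CPM in T cells, and it was also higher in Kupffer (20.5 and 94.4 CPM) and endothelial barcodes (111 and 254 CPM). Il2rb, a receptor chain for interleukins 2 and 15, was at 142 and 91.0 CPM (−0.65, −1.03 to −0.26). Ccr2 was also higher in endothelial barcodes, at 45.6 and 109 CPM.

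Few genes of activation, interferon response and division passed 2-fold. Of 18 tested immediate early and heat shock genes 1 was higher (Klf6, 47.4 and 96.5 CPM) and 1 lower (Hspd1, 428 and 213 CPM, with free RNA levels of 242 and 121 CPM), with a median of 0.05. Egr1 was at 51.3 and 101 CPM, with free RNA levels of 23.7 and 38.7 CPM. Of 13 interferon-stimulated genes 0 passed 2-fold in either direction, with a median of −0.05. Of 12 genes for MHC class I presentation 0 passed it, with a median of −0.28, and B2m was at 1206 and 948 CPM, with free RNA levels of 535 and 454 CPM. All 12 tested cell cycle genes were below 0 on the log2 scale, as were 3130 of all 6815 genes, and their median was −0.61. Their median genomic span was 11.0 kb, and the shortest span class (up to 10.9 kb) had a median of −0.52. The part of gene span in these ratios was not tested. Past 2-fold was 1 of the 12 (8.33%, beside 7.59% of all genes). That was Hmgb2, a chromatin protein of dividing and activated cells, at 574 and 282 CPM (−1.02, −1.23 to −0.82). Top2a was at 187 and 98.1 CPM (−0.93, −1.29 to −0.58) and Mki67, the proliferation antigen, at 115 and 73.6 CPM (−0.65, −1.08 to −0.22).

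For the metabolic genes that the study asked about, free RNA alone would by this estimate give a large part of the level in T cells. At free RNA shares of 49.2% and 51.2%, 2 times the free RNA level is near the level in barcodes under 500 UMIs. Genes used by all cell types may fall short of it, so this limit cannot show whether T cells made the RNA. Of 55 respiratory chain genes 39 were lower (70.9%, beside 7.59% of all genes) with a median of −1.10. Of the 55, 0 reached 2 times the free RNA level in both libraries. Their sum was 21819 CPM in WT T cells and 9362 CPM in N-LKO T cells, and free RNA alone would give 16801 and 5495 CPM. With free RNA subtracted, their median was −0.52 (−0.60 to −0.21). Of 20 fatty acid oxidation genes 8 were lower (40%), and 2 of the 20 reached 2 times that level in both libraries. They summed to 3806 and 2257 CPM against 2715 and 1197 CPM from free RNA. For example, Acaa2, the last enzyme of the cycle, was at 379 and 147 CPM against free RNA levels of 299 and 109 CPM. Of 22 tested glutathione and antioxidant genes 6 were lower (27.3%) and 1 of the 22 reached that level. Cat, which encodes catalase, was at 1286 and 437 CPM against 1003 and 340 CPM. Glycolysis, with 11 of 15 tested, had 0 genes past 2-fold, and Ldha, which makes lactate, was at 295 and 162 CPM against 174 and 84.7 CPM.

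Nus1 (chromosome 10, 52417547 to 52440183, plus strand), which albumin-Cre removes in hepatocytes and not by design in T cells, was at 83.3 CPM in WT T cells (65 UMIs) and 49.8 CPM in N-LKO T cells (63 UMIs), with free RNA levels of 28.5 and 19.2 CPM. The log2 ratio was −0.74 (−1.27 to −0.22), but it turned to 0.75 with a mitochondrial limit of 10%, on 14 and 19 UMIs. Among the 31 genes of dolichol and N-glycan assembly 15 were tested, with 1 lower (Ost4, 153 and 45.9 CPM), 0 higher and a median of 0.15. The natural killer barcodes held Nus1 at 99.3 and 53.9 CPM, and the Kupffer barcodes at 89.3 and 87.3 CPM.

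The share of T cells was lower or higher in N-LKO depending on the denominator. Among all kept barcodes, whose hepatocyte and tumor parts were set by mixing, it was 2.80% in WT and 3.41% in N-LKO, a difference of 0.60 points (0.27 to 0.93). Among barcodes with 2 or more UMIs of any leukocyte list it was 6.06% of 9327 in WT and 4.5% of 16829 in N-LKO, a difference of −1.56 points (−2.15 to −0.99). Among T, natural killer, B, Kupffer and endothelial barcodes the shares were 11.9% and 11.6%, a difference of −0.32 points (−1.53 to 0.88). Among T and natural killer barcodes together they were 91.4% and 87.9%. Myeloid RNA, present in more N-LKO barcodes of every class, enters the denominator of leukocyte barcodes.

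Among the 10 genes highest in N-LKO T cells by the naming rule were Grip1, Scara5, Gpnmb, F13a1, Eda, Ighg2c, Rcan2, Cpne8 and Il1r1. Grip1 was at 2.56 CPM in WT (2 UMIs) and 107 CPM in N-LKO (135 UMIs in 75 cells), a log2 ratio of 5.06 (3.50 to 8.44). It was at 8.63 and 77.1 CPM in endothelial barcodes and 8.34 and 41.0 CPM in Kupffer barcodes. Gpnmb, a gene of lipid-laden macrophages, was at 2.56 and 93.3 CPM in T cells and 138 and 476 CPM in Kupffer barcodes. Scara5, F13a1, Eda, Rcan2 and Il1r1 were likewise at least 2-fold higher in Kupffer and in endothelial barcodes of N-LKO. Ighg2c, an antibody heavy chain, held 142 of its 148 N-LKO UMIs in 1 barcode, and without the top barcode of each library its log2 ratio was 0.68. Cpne8 was at 87.8 and 129 CPM in endothelial barcodes.

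The 10 lowest were Ighg2b, Gzma, Hbb-bs, Gzmb, Gm47283, Gm36975, Oprm1, Dbt, Ccl5 and Ost4. Ighg2b held 281 of its 289 WT UMIs in 1 barcode. Hbb-bs, a globin of red cells, held 124 WT UMIs in 5 cells. Oprm1, the mu opioid receptor gene, was at 57.7 CPM (45 UMIs in 41 cells) and 15.0 CPM (19 UMIs in 18 cells), a log2 ratio of −1.92 (−2.80 to −1.14), and spans 280 kb. Endothelial barcodes held it at 2.16 and 2.76 CPM and natural killer barcodes at 70.9 and 65.9 CPM. Gm36975, at 56.4 and 14.2 CPM, spans 179 kb. Both lie in the longest span class, whose median was above 0. Dbt and Gm47283 were also lower in Kupffer barcodes (Dbt at 50 and 23.4 CPM, Gm47283 at 46.6 and 14.5 CPM).

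Of 28 genes followed through the other settings, the ratios of Ccl5, Ccl4, Ccl3, Xcl1, Nkg7, Gzma and Gzmb, of Cd8a and Cd8b1 and of Trac, Trbc1 and Trbc2 stayed below 0 in every one of them. Leaving aside the 10% mitochondrial limit and the settings that change only which genes are tested, the log2 ratio of Ccl5 ran from −1.83 to −1.59 over 15 settings, that of Gzma from −4.21 to −3.01, that of Cd8b1 from −1.51 to −0.97 and that of Trac from −0.83 to −0.20. Tox ran from −0.11 to 0.20 and lay below 0 in 7 of the 15. Under the 10% limit, with 192 WT and 99 N-LKO T cells, Ccl5 was at −2.39, and Gzma gave 92 UMIs in WT and 0 in N-LKO.

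**Figure D5:**
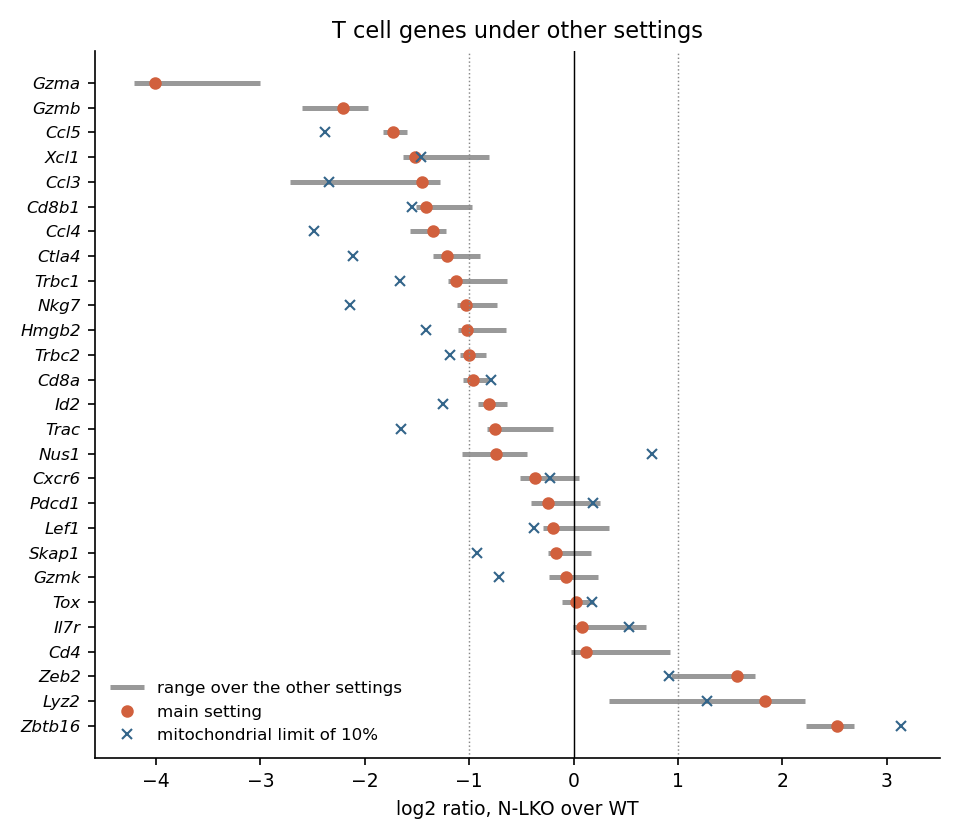
Log2 ratio of N-LKO over WT in T cells for 27 genes in the main setting (orange points), the range over the other settings (grey bars, 15 settings) and the value with a mitochondrial limit of 10% (blue crosses, drawn where both libraries held more than 3 UMIs). Gzma, Gzmb and Ccl5 lie below −1 throughout, while the bars of Tox, Gzmk, Skap1, Lef1, Pdcd1, Cxcr6, Cd4 and Il7r cross 0.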

How the data were processed

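Liver cells were profiled with a droplet assay that reads 3′ ends, 1 library per group, and grouped by the genotype labels. The authors deposited raw UMI counts for each gene in each barcode, made with Cell Ranger 7.1.0 per the file headers. Submitters' notes also name Seurat and the build mm9, while 32158 of 32285 gene identifiers matched GENCODE M21 (GRCm38), the source of spans and coordinates. Whether intronic reads were counted is not given in the sources used here. The libraries held 85522287 UMIs in 100171 barcodes (WT) and 87575064 in 90147 (N-LKO), and 2499 barcode sequences were in both.

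UMIs were summed over T cells, and log2 ratios had 0.5 UMI added to each sum. Genes with a mean of at least 20 CPM counted as tested, and 2-fold as higher or lower. Levels carry exact Poisson, ratios exact conditional binomial, shares Clopper-Pearson and share differences Newcombe intervals (95%, counting error only). Free RNA was estimated from 16 hepatocyte genes and barcodes under 500 UMIs. Comparison classes needed 2 UMIs (natural killer, B) or 3 UMIs (Kupffer, endothelial) of their markers. Named genes are those of the T cell lists and, leaving out mitochondrial, ribosomal protein and hepatocyte genes, the 10 highest and 10 lowest ratios whose interval lies beyond 0 and whose higher level is at least 2 times the free RNA level. Doublets, scored by Scrublet (scanpy 1.11.5, rate set to 10%), were kept, and their removal was an alternative, as were other cell limits, markers, scalings (median of ratios, edgeR 4.0.16 TMM), filters, thinning and free RNA subtraction. The calculations were tested on simulated data with known ratios. Software was Python 3.11.15 with numpy 2.4.6, scipy 1.17.1, pandas 2.3.3, anndata 0.12.19 and matplotlib 3.10.9, and R 4.3.3. Some genes that the rule names are not reported here. Members and lists were chosen with earlier results of these data known.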

Additional observations from a re-analysis of the deposited data

Results flagged for a closer look

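T cell RNA was also present in barcodes below the UMI limit. Under 1000 UMIs, 764 WT barcodes and 908 N-LKO barcodes met the limits on T cell, natural killer and other markers, a signal in data that the comparisons do not use. The gene and mitochondrial limits were not applied to them. With the UMI minimum at 500 and the other limits kept, the rule found 1245 and 1217 T cells in place of 565 and 757. At least 1 UMI of the 21 independent T cell genes was present in 91.4% and 88.1% of them, against 8.96% and 14.4% of all barcodes under 1000 UMIs. Their Ccl5 level was 9322 CPM in WT and 2977 in N-LKO, against 399 and 309 CPM over all barcodes under that limit. In the 199 WT and 158 N-LKO barcodes just outside the limit Ccl5 was at 9092 and 2899 CPM, and in the 152 and 114 T cells just inside it at 8318 and 3005 CPM. Ccl5 was thus lower in N-LKO on both sides of the limit.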

How the results depend on the processing

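With 1 library per group, animals, genotype, tumor tissue and library cannot be told apart, and the intervals cover counting error only. No paired analysis was possible because each group has 1 library. Genes under about 20 CPM, variable segments and coreceptors were limited by depth.

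Under the mitochondrial limit of 10%, which left 192 WT and 99 N-LKO T cells, the CD8 difference was −1.77 points (−25.5 to 15.0). The T cell share among leukocyte barcodes then differed by −2.83 points, and the signalling median was −0.93. The naive median was −0.27, the genes higher numbered 1454, and Nus1 turned to 0.75. With 3 or more T marker UMIs the signalling median was −0.11 and Skap1 turned to 0.073. With Cd3e, Cd3d and Cd3g alone Skap1 turned to 0.16 and the naive median to 0.34. The T cell share differed by −3.31 points with 500 UMIs as the minimum, −2.73 with 3 UMIs for a leukocyte, −0.32 over the comparison classes and −2.47 without myeloid-rich barcodes, the last 2 chosen after seeing the data. With free RNA subtracted, 1177 genes were higher, the naive median was −0.22 and the respiratory median −0.52. Genes higher and lower numbered 1526 and 952 at a mean of 5 CPM, 369 and 311 at 50 CPM, 3117 and 2338 without a filter, and 508 and 108 above the free RNA level, against 765 and 517, since fewer or more genes were then tested. The cause of the other shifts was not tested. Over 28 named genes and the 16 settings that can move a single ratio, 402 of 448 values stayed within the counting interval of the main value, 43 lay outside it without a turn of a called sign, and 3 turned, as given above. Median of ratios, TMM, doublet removal and thinning moved none of the group results past these limits.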
